A study of Homo sapiens with 20 samples.

Results

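RUNX1 peaks that lie close together in the genome were examined as dense clusters in THP-1 cells with and without knockdown of PU.1. Peaks were sorted by chromosome and start, neighbours were joined where the gap between the end of a peak and the start of the next was at most 12.5 kb, and a run of 5 or more joined peaks was taken as a cluster. This position rule, which reads no count, gave 221 clusters holding 1289 of the 26642 peaks (4.84%). RUNX1 was mapped by chromatin immunoprecipitation with sequencing (ChIP-seq) in THP-1 cells, a human line established from acute monocytic leukemia. The cells carried a shRNA cassette switched on by doxycycline, aimed at PU.1 (knockdown, n = 6 libraries) or a scramble sequence (control, n = 6 libraries), so doxycycline is shared by both groups. The 12 libraries came from 2 experimental rounds, called batches: 3 control and 2 knockdown libraries in batch 1, and 3 control and 4 knockdown libraries in batch 2. All libraries came from derivatives of the same line. The scramble and PU.1 shRNAs were carried by separate derivatives, per the study's source data, so knockdown and derivative cannot be told apart. Immunoprecipitations and library preparations were separate per the study's methods, so p-values cover the spread between such libraries within a derivative. The PU.1 level itself is not measured by this assay.

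RUNX1 is a DNA-binding transcription factor that, with its partner CBFB, sets up and maintains blood cell gene programs. PU.1, an ETS family factor encoded by SPI1, is a master regulator of the myeloid lineages that can bind beside RUNX1 and open chromatin. Key lineage genes often carry many binding sites for such factors within a short stretch of DNA, and stretches of dense binding are used to define large regulatory domains. The question put to the data was whether the peaks of a dense stretch changed together when PU.1 was lowered, or in opposite directions.

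Promoters under RUNX1 peaks that changed are shown first, since they are the parts of the clusters for which reference sequence was used here. Among the 105 called peaks of the 31 clusters named by rule, 5 peaks wholly covered the RefSeq promoter window of a protein-coding gene. They covered 6 windows at 5 genes. A window ran from 250 bases before to 50 after the start (assembly GRCh38.p14). Windows were not read on the chromosome that is left out of the start sites below. Called peaks of named clusters there could not enter this count. The 250 bases before the start are printed on the strand of the gene, 5′ to 3′. Capitals mark each match, on either strand, to TGTGGT or TGCGGT (core letters recognised by RUNX factors) or to GAGGAA (core letters recognised by PU.1). IL17RE has 2 windows under the same peak, and the more upstream is printed.
SMAP2, lost: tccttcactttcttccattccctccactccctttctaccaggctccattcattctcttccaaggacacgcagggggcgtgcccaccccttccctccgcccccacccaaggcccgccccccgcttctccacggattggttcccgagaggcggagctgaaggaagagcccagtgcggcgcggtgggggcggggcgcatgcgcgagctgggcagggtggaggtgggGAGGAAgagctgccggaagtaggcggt
NFYC, lost: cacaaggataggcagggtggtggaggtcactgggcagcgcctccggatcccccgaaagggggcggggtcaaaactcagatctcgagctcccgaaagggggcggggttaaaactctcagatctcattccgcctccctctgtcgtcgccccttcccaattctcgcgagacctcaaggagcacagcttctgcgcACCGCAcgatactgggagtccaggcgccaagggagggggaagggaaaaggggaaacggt
ATG16L2, lost: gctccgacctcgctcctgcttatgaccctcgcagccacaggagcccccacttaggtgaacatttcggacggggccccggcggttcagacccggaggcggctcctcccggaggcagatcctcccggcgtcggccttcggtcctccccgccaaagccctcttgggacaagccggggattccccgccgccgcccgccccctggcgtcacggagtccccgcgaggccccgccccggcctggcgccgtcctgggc
POLD1, gained: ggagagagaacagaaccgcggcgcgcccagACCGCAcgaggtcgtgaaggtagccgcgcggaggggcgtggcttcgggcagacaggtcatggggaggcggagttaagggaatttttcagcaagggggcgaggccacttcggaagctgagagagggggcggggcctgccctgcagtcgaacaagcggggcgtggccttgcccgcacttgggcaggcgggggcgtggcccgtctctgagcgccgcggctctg
IL17RE, gained: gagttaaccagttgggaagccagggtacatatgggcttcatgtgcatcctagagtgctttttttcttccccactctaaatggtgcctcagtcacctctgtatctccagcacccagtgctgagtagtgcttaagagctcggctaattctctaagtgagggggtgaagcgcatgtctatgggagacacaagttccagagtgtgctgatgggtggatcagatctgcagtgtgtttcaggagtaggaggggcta
They lie at chr1:40373477-40373726 (SMAP2), chr1:40691454-40691703 (NFYC), chr11:72814161-72814410 (ATG16L2), chr19:50384073-50384322 (POLD1) and chr3:9902362-9902611 (IL17RE), all on the plus strand. SMAP2, an Arf GTPase-activating protein of vesicle transport, held GAGGAA beginning 27 bases before the start. NFYC, a subunit of the CCAAT-binding factor NF-Y, held TGCGGT on the opposite strand beginning 59 bases before the start, and POLD1, the catalytic subunit of DNA polymerase delta, held it beginning 220 bases before the start. The peak over the POLD1 promoter went from 80.9 to 109 (median 90.5) in control to 102 to 143 (median 131) normalised counts in knockdown libraries, overlapping ranges with a log2 change of 0.47 (adjusted p = 4.75e-04, DESeq2). Neither motif was found in the printed windows of ATG16L2, a relative of the autophagy gene ATG16L1, or of IL17RE, a receptor subunit for interleukin 17C. The other IL17RE window, chr3:9902598-9902847, held GAGGAA on the opposite strand beginning 121 bases before its start. Over the 22199 protein-coding windows of this length in the RefSeq table, 15.6% held TGTGGT or TGCGGT (9.36% and 6.82%) and 23.7% held GAGGAA, so such matches are common and no site is assigned from them.

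The clusters were mostly short. Of the 221, 135 held 5 peaks, 45 held 6, 20 held 7 and 21 held 8 or more, with 16 at most. They spanned 9.62 to 112 kb (median 29.7 kb), of which a median of 6.46 kb was covered by peaks, and together they covered 1.54 Mb or 5.61% of all peak sequence. The largest gap inside a cluster was 12499 bp and the smallest gap left unjoined was 12501 bp. Just inside the size limit, the 675 peaks of runs of 5 had a median normalised count of 37.1, and just outside it, the 1432 peaks in 358 runs of 4 had 33.0. Chromosome 19 held 46 clusters with 281 of its 1466 peaks (19.2%), chromosome 1 held 30, chromosome 3 held 18, chromosome 17 held 15, chromosome 8 held 14 and chromosome 22 held 10.

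Most clusters lay over or between few genes. No protein-coding gene overlapped 28 clusters, a single gene overlapped 115, and 2 to 7 genes overlapped 78. Cluster peaks were wider than peaks in general (median 1051 against 889 bp) and stronger (median normalised count 38.5 against 30.9 for peaks outside clusters). Start sites, and the promoter windows above, were read without chromosome 8, for which they were not analysed here. The called peaks of the named clusters over DPYSL2, DOK2 and ZC3H3 to MROH6 were thus not read for promoters. On the other chromosomes 219 of 1206 cluster peaks (18.2%) lay within 1 kb of a protein-coding start, against 21.7% of all 25276 peaks, while 44.8% lay within 10 kb of a start, against 36.9%. At least 1 peak at a start was present in 114 of the 207 clusters on those chromosomes.

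Depth was moderate for single peaks and better for sums. Between 630247 and 1719840 reads per library fell into peaks, and 6.17% to 6.41% of them lay in clusters in control libraries (mean 6.26% ± 0.0862, SD, n = 6) and 6.30% to 6.44% in knockdown libraries (mean 6.38% ± 0.0601, SD, n = 6). The difference of means within batch was 0.131 percentage points, 0.228 in batch 1 and 0.0343 in batch 2, and the ranges of the groups overlapped. Standard errors of the log2 fold changes had a median of 0.262 in the weakest of 3 equal classes of cluster peaks, 0.134 in the strongest class and 0.0791 for cluster sums. Sums and strong peaks were thus measured more precisely than weak peaks.

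At the level of single peaks, 532 of the 1289 cluster peaks were called, 296 gained (23%) and 236 lost (18.3%), by DESeq2 with batch in the model at an adjusted p under 0.05 and a fold change over 1.1 (knockdown over control). Over all 26642 peaks, 21.3% were gained and 20.7% were lost by the same calls, so the cluster shares stood close to the background. The gained peaks had a median of the group means of 25.7 normalised counts in control and 45.1 in knockdown libraries. The lost peaks started higher, with a median of 53.4 in control and 31.5 in knockdown libraries. Changes of more than 2-fold were fitted for 105 gained (8.15%) and 55 lost (4.27%) cluster peaks, where all peaks gave 8.86% and 8.2%. The widest reached log2 fold changes of 2.47 and -2.54. Every knockdown library lay above every control library of its batch in 202 cluster peaks (15.7%) and below in 151 (11.7%), called or not, where all peaks gave 14.4% and 13.9%. Of the called peaks, 193 gained and 144 lost were among these.

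Weak cluster peaks were gained more often than lost. In the weakest class (430 peaks, median normalised count 20.7), 27.9% were gained and 14.2% lost, against 25% and 20.9% of the 11829 peaks of like strength outside clusters. In the strongest class (430 peaks, median 83.1), 21.9% were gained and 20.2% lost, against 17.8% and 19.8% of 5543 outside peaks. The strongest peak of each cluster was gained in 60 clusters (27.1%) and lost in 45 (20.4%). Peaks at a start were gained less often than peaks away from it: 24 of 219 (11.0%) against 26.4% of 987. Over all peaks the same shares were 4.35% of 5489 and 26.2%. Losses at starts made up 15.1% in clusters and 17.7% over all peaks. These shares were not tested against each other.

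Summing the reads over each cluster gave 1 value per library and cluster. By DESeq2 on the sums of all 19321 runs, the sum was gained in 54 clusters (24.4%), lost in 43 (19.5%) and not called in 124. Over all runs, 21.5% were gained and 22.2% were lost. In an alternative, size factors came only from peaks of at least 10 counts in every library, and runs were limited likewise. The sums still held all their peaks, and the split was 78 gained and 25 lost. The balance of the directions thus depends on the scaling used. Every knockdown library lay above every control library of its batch in 36 clusters (16.3%) and below in 28 (12.7%), where all runs gave 14.6% and 14.6%. On chromosome 1, 6 sums were gained and 15 lost, and on chromosome 3, 8 were gained and 1 was lost. On chromosome 19, with the most clusters, 8 sums were gained and 6 lost.

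At least 1 gained and at least 1 lost peak were found in 104 of the 221 clusters (47.1%). Over all peaks 21.3% were gained and 20.7% lost. The share that unrelated calls at these rates would give was not computed, so 47.1% is not read as an excess. In 57 clusters 2 or more peaks were called and all of them in the same direction, 36 with gains and 21 with losses. A single call was made in 46 clusters and none in 14. Only the cluster near PTPN1 had all its peaks gained, and in no cluster were all peaks lost. A cluster with more peaks has more chances to hold a gain and a loss, so the share with opposite calls is bound to the cluster size. It was 53 of 135 with 5 peaks (39.3%), 37 of 65 with 6 or 7 (56.9%) and 14 of 21 with 8 or more (66.7%). The sum was called in 46.7%, 41.5% and 33.3% of these size classes.

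**Figure D1:**
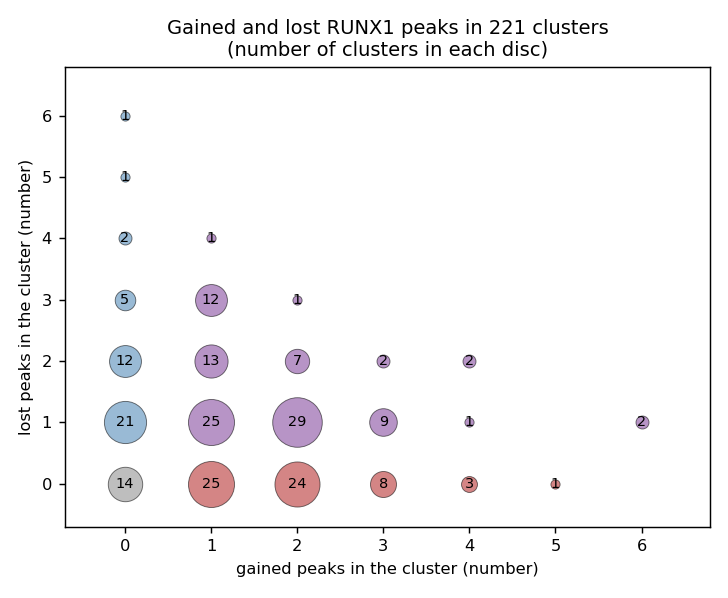
Number of gained peaks (x axis) and lost peaks (y axis) in each of the 221 clusters, as called by DESeq2. The number in each disc counts the clusters at that position, and purple discs hold the 104 clusters with gained and lost peaks, red those with gains only, blue those with losses only and grey the 14 clusters with no call.

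In the 104 clusters with opposite calls, gains and losses largely offset each other in the sum. They held 638 peaks, 182 gained and 157 lost. The median summed rise of their gained peaks was 31.8 normalised counts and the median summed fall of their lost peaks was -28.4, both as knockdown minus control. The sum was gained in 17 of them, lost in 17 and not called in 70, and in 37 its log2 fold change lay within 0.1 of zero. By contrast 28 of the 36 clusters with gains alone had a gained sum (median log2 fold change 0.34) and 19 of the 21 with losses alone had a lost sum (median -0.38). These counts share the peak calls with the rule of sorting and are given as a description.

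The joining rule keeps the peaks of a cluster close, with a median gap of 4498.5 bp. The nearest gained and lost peak were separated by a median of 8362 bp (90 to 44340 bp), and in 57 clusters they were direct neighbours. In 55 clusters a gained and a lost peak each had libraries that did not overlap between groups within either batch. Of the 79 opposite clusters with 3 or more calls, the direction changed once along the cluster in 49. Over the whole table, of neighbouring peaks that were both called, 137 of 176 pairs (77.8%) with a gap under 1 kb moved the same way, falling to 54.5% for gaps over 100 kb. Inside clusters 115 of 195 such pairs (59.0%) moved the same way, against 784 of 1150 (68.2%) in runs of 2 to 4 peaks and 2039 of 3549 (57.5%) of neighbours that were not joined. Pairs share a region and are not independent, so no test was made.

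The clearest cluster in which all peaks rose lies at chr20:50412842-50451784 in a stretch without protein-coding genes, 58.6 kb before PTPN1, which encodes the tyrosine phosphatase PTP1B, and 220 kb after CEBPB, which encodes a myeloid C/EBP factor. Its 5 peaks summed to 187 to 219 normalised counts in control libraries (median 199) and to 367 to 386 in knockdown libraries (median 375). Every knockdown library lay well above every control library. The log2 fold change of the sum was 0.89 ± 0.07 (SE; DESeq2, adjusted p = 7.16e-31), with 0.97 in batch 1 and 0.83 in batch 2. Its strongest peak, at 50450304, went from 82.1 to 108 (median 93.1) in control to 165 to 205 (median 188) in knockdown libraries. The weakest, at 50423059, went from 2.60 to 15.2 (median 8.55) to 17.2 to 30.1 (median 22.3). The 5 peak log2 fold changes ran from 0.56 to 1.52, so weak and strong peaks of this cluster rose alike in direction.

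The cluster at chr9:134215285-134244247 lies between WDR5, a scaffold of histone methyltransferase complexes, 55.3 kb before it, and RXRA, the retinoid X receptor alpha, 82.2 kb after it. Its 6 peaks summed to 189 to 239 in control (median 216) and 365 to 423 in knockdown libraries (median 381), again without overlap. The sum rose by a log2 change of 0.85 (adjusted p = 1.87e-25, DESeq2), and 0.83 and 0.87 in batches 1 and 2. Of its peaks 4 were gained, led by the peak at 134228912 that went from 103 to 143 (median 123) to 226 to 255 (median 230). That peak carried 59.9% of the cluster's counts. Near COL11A1, a fibrillar collagen chain whose start lay 33.9 kb away, 4 of 5 peaks at chr1:103142416-103166731 were gained. The sum there went from 136 to 213 (median 165) to 232 to 317 (median 296), with a log2 change of 0.72 (adjusted p = 2.34e-14, DESeq2).

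IL6R, the receptor for interleukin 6, carried 2 clusters that moved in opposite directions. The cluster at its 3′ side, chr1:154438054-154457878, summed to 168 to 222 in control (median 208) and 304 to 375 in knockdown libraries (median 340.01). The groups did not overlap, and the log2 fold change was 0.71 (DESeq2, adjusted p = 2.96e-17). Of its 5 peaks 2 were gained, and the peak at 154444464 rose from 63.4 to 114 (median 88.0) to 167 to 233 (median 181), a log2 change of 1.07 (adjusted p = 3.95e-15, DESeq2). The other cluster, chr1:154400169-154420725, begins 4.8 kb before the IL6R start and ends 17329 bp before the first. It was picked out after its values were seen. Its sum was 427 to 516 in control (median 445) and 340.4 to 420.1 in knockdown libraries (median 357), with a log2 fold change of -0.29 ± 0.06 (SE; DESeq2, adjusted p = 4.38e-05), and the 3 peaks nearest the start were lost by -0.64, -0.35 and -0.38. Within the same gene RUNX1 reads were thus lower around the start and higher in the distal part.

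At chr3:9894371-9916248, over IL17RE, 3 of 5 peaks were gained and the sum went from 136 to 173 (median 144) to 219 to 259 (median 243), a log2 change of 0.71 (adjusted p = 1.39e-13, DESeq2). The libraries of the groups did not overlap. The peak over the IL17RE promoter printed above, at 9901370, went from 38.0 to 50.7 (median 43.4) to 74.0 to 97.7 (median 88.6). It is among the 24 cluster peaks at a start that were gained. The peak at 9911618 rose further, from 21.9 to 41.0 (median 32.8) to 71.4 to 91.8 (median 81.2), a log2 change of 1.35 (adjusted p = 1.08e-13, DESeq2). The outermost peaks at 9894371 and 9915564 were not called, with log2 fold changes of -0.44 and 0.01.

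**Figure D2:**
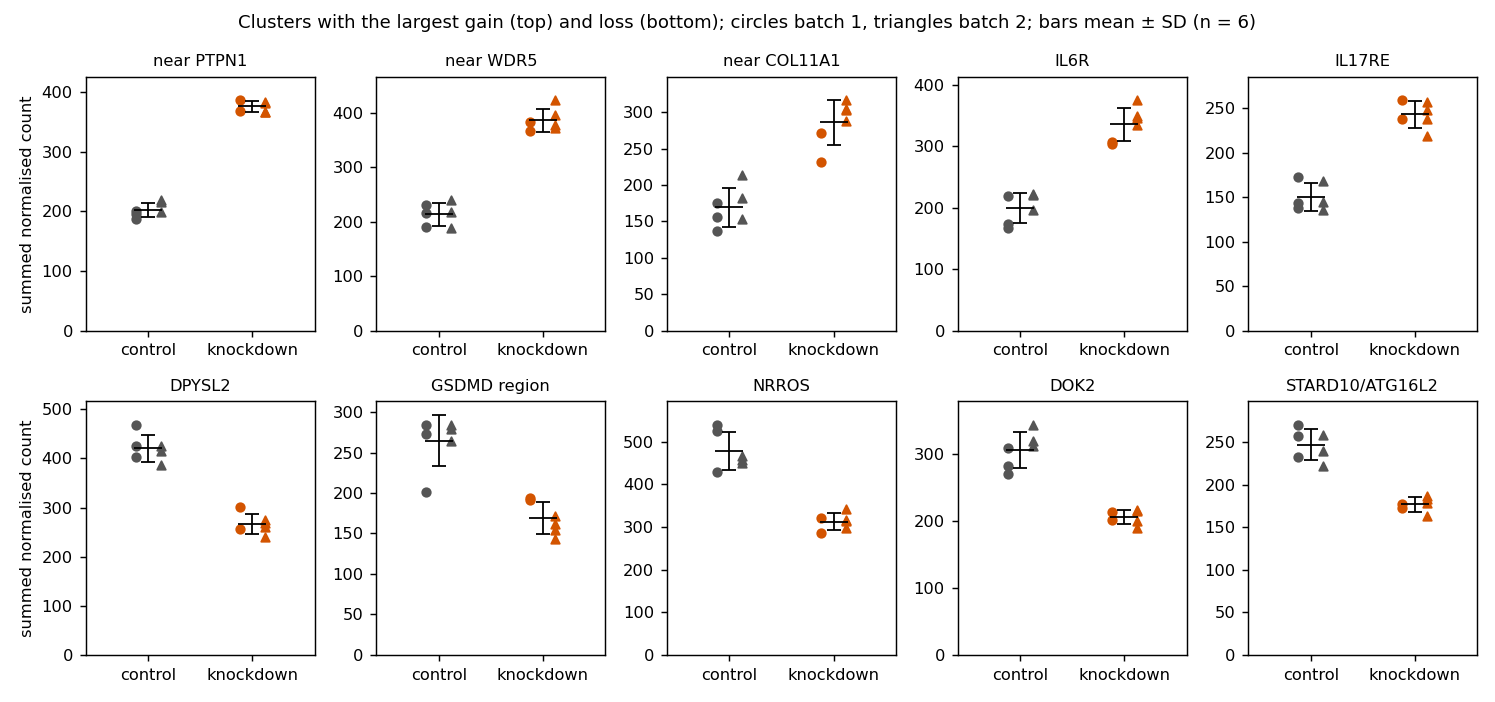
Summed normalised count of each library (y axis, from 0) in control and knockdown cells for the 5 clusters with the largest gain (top row) and the 5 with the largest loss (bottom row). Circles are batch 1, triangles batch 2, and bars give the mean ± SD (n = 6). The cluster near PTPN1 sits at 187 to 219 in control and 367 to 386 in knockdown libraries, and DPYSL2 at 386 to 469 and 241 to 301.

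Among the losses, the cluster over DPYSL2, which encodes a cytoskeletal regulator of cell shape, had the largest fall of the sum. Its 7 peaks at chr8:26571801-26610272 summed to 386 to 469 in control (median 419) and 241 to 301 in knockdown libraries (median 265). No knockdown library reached the lowest control library. The log2 fold change was -0.64 ± 0.07 (SE; DESeq2, adjusted p = 9.50e-18), with -0.62 in batch 1 and -0.64 in batch 2. Of the peaks 5 were lost. The peak at 26571801 dropped most, from 22.3 to 41.1 (median 36.8) to 6.58 to 12.1 (median 11.1), and the strong peak at 26608455 went from 133 to 152 (median 137) to 66.5 to 102 (median 87.0).

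DOK2, an adaptor that restrains tyrosine kinase signalling in blood cells, carried the peak with the deepest loss of all cluster peaks. At 21905483 the normalised count was 30.5 to 62.4 in control (median 45.9) and 5.59 to 15.4 in knockdown libraries (median 7.26). The log2 fold change was -2.54 ± 0.27 (SE; DESeq2, adjusted p = 2.27e-19). In the same cluster, chr8:21896962-21914756, the next peaks at 21908834 and 21911514 were not called, with log2 fold changes of 0.19 and 0.07, so the loss was unequal along 17.8 kb. The sum of the 5 peaks went from 269 to 343 (median 309.9) to 189 to 216 (median 207), a log2 change of -0.59 (adjusted p = 2.02e-12, DESeq2), with -0.45 and -0.67 in batches 1 and 2.

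NRROS encodes a membrane protein that holds latent TGF-beta on myeloid cells. Its cluster at chr3:196609105-196644055 had 4 of 5 peaks lost and a sum of 429 to 541 in control (median 462) and 285 to 342 in knockdown libraries (median 316). The groups did not overlap, and the log2 fold change was -0.60 (DESeq2, adjusted p = 5.03e-15). The cluster over ZC3H3, GSDMD and MROH6 at chr8:143540606-143572145 includes GSDMD, the pore-forming protein of pyroptosis. It had 4 of 5 peaks lost and went from 202 to 285 (median 276) to 143 to 194 (median 167), a log2 change of -0.63 (adjusted p = 1.64e-09, DESeq2), with -0.38 in batch 1 and -0.81 in batch 2. Over STARD10, a lipid transfer protein, and ATG16L2, at chr11:72793489-72816334, 3 of 5 peaks were lost and the sum went from 222 to 271 (median 249) to 163 to 186 (median 178), a log2 change of -0.48 (adjusted p = 6.94e-08, DESeq2). Peaks within 5 Mb of that cluster had a median log2 fold change of -0.28, so part of the fall was shared by the surrounding region. Chromosome 8, which carries the clusters over DPYSL2, DOK2 and ZC3H3 to MROH6, also ran low. For its 14 clusters, the median log2 fold change of peaks within 5 Mb had a median of -0.17. On that chromosome 5 sums were lost and 1 was gained. Centred on peaks within 5 Mb, the sums over DPYSL2, DOK2 and ZC3H3 to MROH6 were still called as lost. The peak over the ATG16L2 promoter went from 41.5 to 61.1 (median 48.5) to 17.8 to 38.8 (median 27.6).

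The clusters with opposite calls described next were named for a wide gap between their called peaks. In the cluster over PARVB and PARVG, at chr22:44154120-44212315, 6 of 9 peaks were gained and 1 was lost. Parvins link integrins to actin, and PARVG is the form of blood cells. The peak at 44163852, 8.6 kb before the PARVG start, went from 5.76 to 11.7 (median 10.5) to 38.4 to 61.5 (median 45.5), a log2 change of 2.33 (adjusted p = 1.58e-16, DESeq2). Inside the gene, 9.2 kb after the start, the peak at 44180757 went from 86.4 to 116 (median 93.1) to 58.1 to 83.1 (median 70.6), a log2 change of -0.44 (adjusted p = 0.00247, DESeq2). Neither pair of groups overlapped, and the peak at the start itself was not called (log2 fold change 0.08). The sum, 318 to 382 in control (median 363) and 549.8 to 599 in knockdown libraries (median 574), rose by a log2 change of 0.66 (adjusted p = 4.07e-25, DESeq2).

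The cluster over C19orf47 and PLD3, an endolysosomal nuclease, showed the same mix at chr19:40330095-40366244. Of its 7 peaks 3 were gained and 1 was lost. The peak at 40336150 went from 4.61 to 12.1 (median 7.24) to 32.9 to 45.6 (median 37.5), a log2 change of 2.27 (adjusted p = 2.07e-13, DESeq2). The lost peak at 40358579 went from 46.9 to 59.9 (median 56.8) to 23.3 to 42.0 (median 28.7), a log2 change of -0.82 (adjusted p = 1.71e-05, DESeq2), while its neighbour at 40362965 went up from 46.1 to 64.2 (median 53.6) to 99.8 to 121 (median 107). The control ranges of these neighbours overlapped almost wholly and their knockdown ranges did not. The sum rose from 200.5 to 244 (median 221) to 334 to 368 (median 349.6), a log2 change of 0.65 (adjusted p = 4.71e-17, DESeq2).

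**Figure D3:**
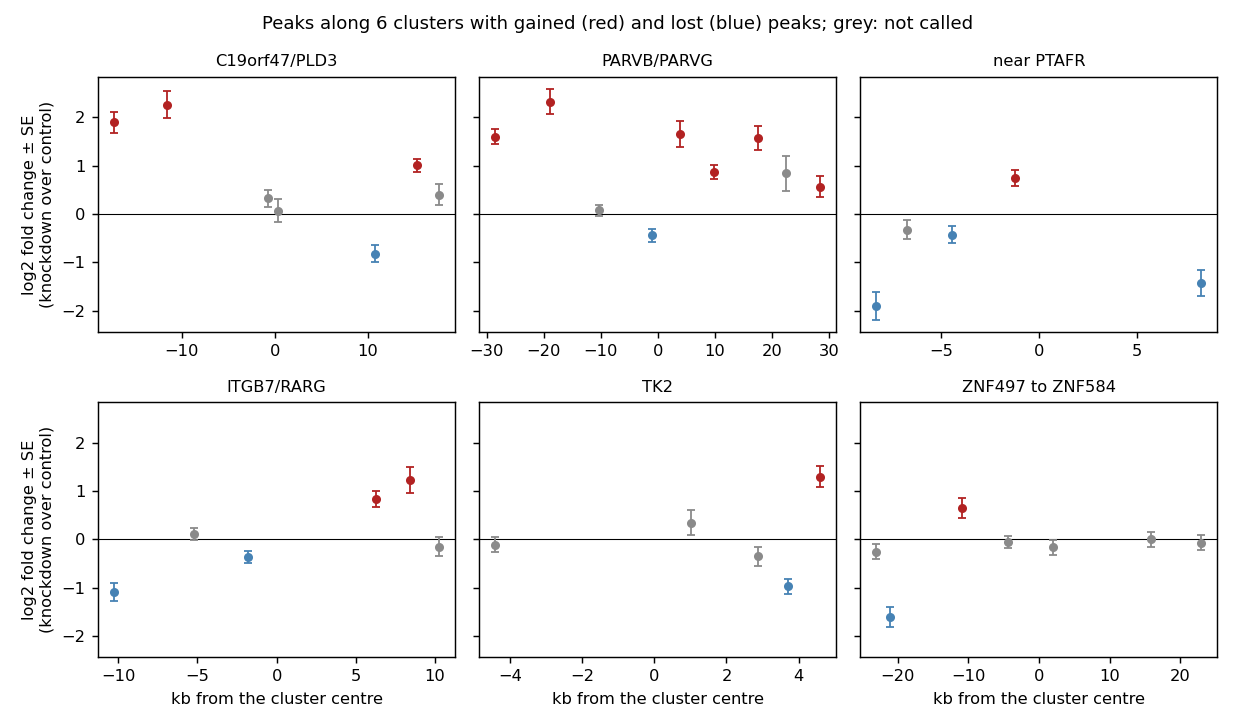
Log2 fold change ± SE (y axis, knockdown over control) of each peak along 6 named clusters with gained (red) and lost (blue) peaks, against distance from the cluster centre in kb (x axis). Grey peaks were not called. In the TK2 cluster a lost peak (-0.97) and a gained peak (1.30) are direct neighbours.

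TK2, the mitochondrial thymidine kinase, held the closest of these opposite pairs. At chr16:66516291-66526346 the peak 66524689-66525351 went from 59.0 to 95.0 (median 84.8) to 36.8 to 48.4 (median 41.2), a log2 change of -0.97 (adjusted p = 1.36e-09, DESeq2). The next peak, 66525476-66526346, went from 14.3 to 25.4 (median 17.8) to 30.4 to 52.2 (median 47.3), a log2 change of 1.30 (adjusted p = 7.25e-08, DESeq2). In control libraries the first was the stronger in every library, and in knockdown libraries their ranges overlapped. The sum of the 5 peaks, 199 to 251 in control (median 232) and 184 to 234 in knockdown libraries (median 211), was not called (log2 change -0.14, adjusted p = 0.202, DESeq2).

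Offsetting was also near complete over ITGB7, the integrin beta 7 chain, and RARG, a retinoic acid receptor. Their cluster at chr12:53200194-53222104 had 2 gained and 2 lost peaks among 6 and a sum of 311 to 355 in control (median 349) and 313 to 374 in knockdown libraries (median 349). The log2 fold change of the sum was 0.01 (DESeq2, adjusted p = 0.919). Its peak at 53200194 was lost, from 46.8 to 55.1 (median 51.1) to 18.4 to 29.8 (median 26). Its peak at 53219092 was gained, from 8.43 to 23.4 (median 12.1) to 23.1 to 45.7 (median 33.2), with log2 fold changes of -1.09 and 1.23.

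Between EYA3 and PTAFR, the receptor for platelet-activating factor, the cluster at chr1:28111073-28128277 had 3 lost peaks and 1 gained peak. The outermost peak at 28111073 went from 19.5 to 42.6 (median 35.6) to 6.52 to 12.8 (median 7.67), a log2 fold change of -1.90, and the peak at 28117830 went from 31.6 to 54.1 (median 49.2) to 63.9 to 83.9 (median 79.4), a log2 fold change of 0.75. Neither overlapped between groups. The sum went from 172 to 212 (median 179) to 145 to 172 (median 159), a log2 change of -0.25 (adjusted p = 0.0171, DESeq2), and lost its call without control replicate 3, control replicate 5 or knockdown replicate 2, where the DESeq2 adjusted p was 0.0606, 0.0640 and 0.0897. At the zinc finger genes ZNF497 to ZNF584, chr19:58361731-58409260, the peak at 58363991 was lost by -1.60 and the next at 58374055 gained by 0.65. The sum there, 422 to 489.9 (median 445) against 360.03 to 423 (median 392), had a log2 change of -0.19 (adjusted p = 0.0167, DESeq2), and lost its call without control replicate 6 or knockdown replicate 4, where the DESeq2 adjusted p was 0.0779 and 0.0572.

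The clusters with most peaks showed small net changes. The largest, 16 peaks at chr1:228611983-228648205, lies over 16 genes of the 5S ribosomal RNA array next to RHOU, with peaks spaced by a median of 2238 bp. It summed to 1111 to 1682 in control (median 1369) and 922 to 1509 in knockdown libraries (median 1133), overlapping ranges with a log2 fold change of -0.16 ± 0.13 (SE; DESeq2, adjusted p = 0.318). Relative to peaks within 5 Mb the value was -0.29 (adjusted p = 0.0496, normal test on the DESeq2 estimate with the local median taken as fixed). Without knockdown replicate 3 it was -0.26 (DESeq2, adjusted p = 1.15e-04). The copies are near-identical, so reads cannot be placed securely among them and the values of single peaks there are uncertain. Near-identical sequence may also underlie 6 other clusters, flagged by position alone. Of these, 5 lie around the centromere of chromosome 1 and 1 on chromosome Y, where 3 of its peaks have an X peak at the same place. Sequence identity was not examined for them. Together with the 5S array these 7 clusters hold 55 peaks.

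The cluster over MYH9, the nonmuscle myosin heavy chain, TXN2 and FOXRED2 at chr22:36383055-36494713 was the longest, with 14 peaks over 112 kb. Of these 4 were gained and 2 lost. The peaks at 36418769 and 36423011, upstream of MYH9, went from 36.4 to 46.5 (median 41.6) to 63.9 to 89.5 (median 70.7) and from 50.3 to 78.2 (median 61.6) to 94.5 to 132 (median 105). The last peak, at 36493448, went from 111 to 159 (median 132) to 72.2 to 98.8 (median 78.2), a log2 change of -0.74 (adjusted p = 3.74e-09, DESeq2). The sum, 827 to 937 (median 899) against 920.2 to 1058 (median 1005), had a log2 change of 0.16 (adjusted p = 0.00458, DESeq2), which turned to -0.03 relative to peaks within 5 Mb (median 0.19 there).

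SRGN encodes serglycin, the core proteoglycan of blood cell granules. Its 12 peaks at chr10:69044671-69102188 had 1 gained and 2 lost members and a sum of 619 to 694 in control (median 680.5) and 662 to 774 in knockdown libraries (median 724). These ranges overlapped, and the sum was not called (log2 change 0.10, adjusted p = 0.126, DESeq2). ABCA7 to SBNO2 at chr19:1062464-1134200, which includes GPX4, the enzyme that clears lipid peroxides, had 1 gained and 2 lost among 12 peaks. Its sum, 621 to 746 (median 648) against 573 to 613 (median 600.2), had a log2 change of -0.16 (adjusted p = 0.0153, DESeq2). The call did not hold without control replicate 4 (DESeq2, adjusted p = 0.0900) or without control replicate 1, where the fold change fell under the limit. Nor did it hold relative to peaks within 5 Mb (-0.11, adjusted p = 0.137, normal test on the DESeq2 estimate). The cluster named for NID1, a basement membrane protein, had 1 gained and 3 lost among 11 peaks at chr1:235931686-235981406. These peaks lay 84 to 132.9 kb downstream of the NID1 start. The sum there was 464 to 525 (median 495) against 447 to 485 (median 469) and was not called (log2 change -0.10, adjusted p = 0.141, DESeq2), although the peak at 235954330 went from 70.3 to 92.1 (median 81.8) to 37.3 to 42.9 (median 40.5).

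Of the 5 clusters with the most reads, 4 lie within 3.19 Mb of the short arm of chromosome 1 and the other is the 5S array. That stretch holds 5 clusters, of which 4 sums were lost and 0 gained by DESeq2. Its 101 other peaks had a median normalised count of 90.4 against 30.9 outside clusters, and a median log2 fold change of -0.24. The copy number of the stretch was not tested, and the high counts and the lower knockdown values there belong to the region and not to its clusters alone.

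SMAP2 had the largest loss in that stretch. Its 8 peaks at chr1:40371459-40400845 summed to 1515 to 1982 in control (median 1590.1) and 1139.7 to 1396 in knockdown libraries (median 1239.8), with no overlap and 6 peaks lost. The log2 fold change was -0.44 (DESeq2, adjusted p = 2.80e-12). The promoter peak at 40372591 went from 368 to 447 (median 399) to 288 to 354 (median 315), a log2 change of -0.32 (adjusted p = 7.19e-05, DESeq2). The decline was deeper 26.2 kb after the start, where the peak at 40398912 went from 155 to 231 (median 180.5) to 89.2 to 124 (median 116), a log2 fold change of -0.79. The peak before the start, at 40371459, was not called (log2 fold change -0.01).

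RIMS3 and NFYC shared a cluster of 6 peaks with 2 gained and 2 lost at chr1:40683222-40713742. The peak over the NFYC promoter, the strongest, went from 619 to 781 (median 711) to 476 to 571 (median 531), a log2 change of -0.40 (adjusted p = 4.74e-07, DESeq2). At 40696981 the count was 71.7 to 128 in control (median 86.1) and 122 to 238 in knockdown libraries (median 166), a log2 change of 0.80 (adjusted p = 2.61e-09, DESeq2). The sum had a log2 change of -0.17 (adjusted p = 0.00747, DESeq2), which was -0.05 relative to peaks within 5 Mb. Over SLC2A1, the glucose transporter GLUT1, 1 of 8 peaks at chr1:42922579-42967752 was lost. That peak, at 42930645, went from 507 to 557 (median 545) to 333 to 401 (median 359) and carried 44.3% of the cluster's counts, so the sum fell by 0.25 on the log2 scale (DESeq2, adjusted p = 6.18e-07), or by 0.12 relative to peaks within 5 Mb. The cluster named for BMP8B, a secreted BMP family ligand, lies at chr1:39775869-39818286. It had 1 gained peak inside the gene and 2 lost peaks outside it. Its sum was not called (log2 change -0.03, adjusted p = 0.700, DESeq2).

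Of a list of 60 genes for blood regulators, myeloid receptors and markers, 4 genes (6.67%) overlapped or lay nearest to a cluster, as did 381 of all 20056 protein-coding genes (1.9%). They were RUNX1, CEBPA, NFE2 and ITGAL. The list was drawn up with earlier results of these data known, so nothing is read from the difference. These 4 clusters held 21 peaks, of which 7 were gained and 1 was lost, beside 21.3% gained and 20.7% lost over all peaks, and the median log2 fold change of the 4 sums was 0.10. Only the sum at NFE2 was called.

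RUNX1 itself carried a cluster of 5 peaks at chr21:34887683-34923931 with a sum that was not called, 231 to 300.2 in control (median 247) and 229 to 265 in knockdown libraries (median 242). The log2 fold change was -0.03 (DESeq2, adjusted p = 0.776). Distances here are from the first listed start of RUNX1. Other starts of the gene were not used for them, so upstream does not mean outside the gene. The peak at that start was not called (log2 fold change 0.08). A weak peak 12 kb upstream of it went from 8.07 to 14.1 (median 12) to 13.7 to 30.9 (median 27.4), a log2 change of 1.1 (adjusted p = 5.71e-04, DESeq2). The peak 22.6 kb upstream went from 29.5 to 49.4 (median 44.2) to 20.5 to 26.4 (median 23.9), a log2 change of -0.76 (adjusted p = 7.01e-04, DESeq2).

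Downstream of CEBPA, which encodes the C/EBP factor needed for granulocyte and monocyte formation, a cluster of 5 peaks lay at chr19:33248866-33282819. The peak 41.4 kb downstream of the CEBPA start, in a region known for a myeloid enhancer, went from 122 to 165 (median 151) to 143 to 237 (median 166). The ranges overlapped, with a log2 change of 0.34 (adjusted p = 0.00433, DESeq2). The peak 20.2 kb downstream went from 20.5 to 39.2 (median 31.4) to 30.8 to 61.2 (median 47.8), a log2 change of 0.68 (adjusted p = 0.00385, DESeq2). The sum, 370.5 to 429 (median 399) against 394 to 506 (median 413), was not called (log2 change 0.13, adjusted p = 0.0966, DESeq2). It passed without control replicate 4 (0.16, adjusted p = 0.0492, DESeq2) and relative to peaks within 5 Mb (0.19, adjusted p = 0.0122, normal test on the DESeq2 estimate).

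NFE2 encodes a factor of the erythroid and megakaryocyte lineages and shares its cluster, chr12:54300725-54329211, with COPZ1, a vesicle coat subunit. The sum of 5 peaks went from 234 to 314 (median 274) to 304 to 359 (median 330.3), a log2 change of 0.27 (adjusted p = 0.00152, DESeq2), with 0.13 in batch 1 and 0.39 in batch 2. Gained peaks were those at 54300725 and 54303920, the latter from 59.8 to 88.4 (median 71.0) to 91.3 to 110 (median 102). ITGAL, the alpha chain of the leukocyte integrin LFA-1, shares chr16:30445529-30491173 with SEPHS2. Its sum was 260.2 to 289.8 (median 279) against 267 to 334 (median 289) and was not called (log2 change 0.06, adjusted p = 0.516, DESeq2), while the last 2 peaks, at 30484978 and 30490087, were gained by 0.71 and 0.67. Relative to peaks within 5 Mb the sum passed as gained (0.17, adjusted p = 0.0456, normal test on the DESeq2 estimate with the local median taken as fixed).

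**Figure D4:**
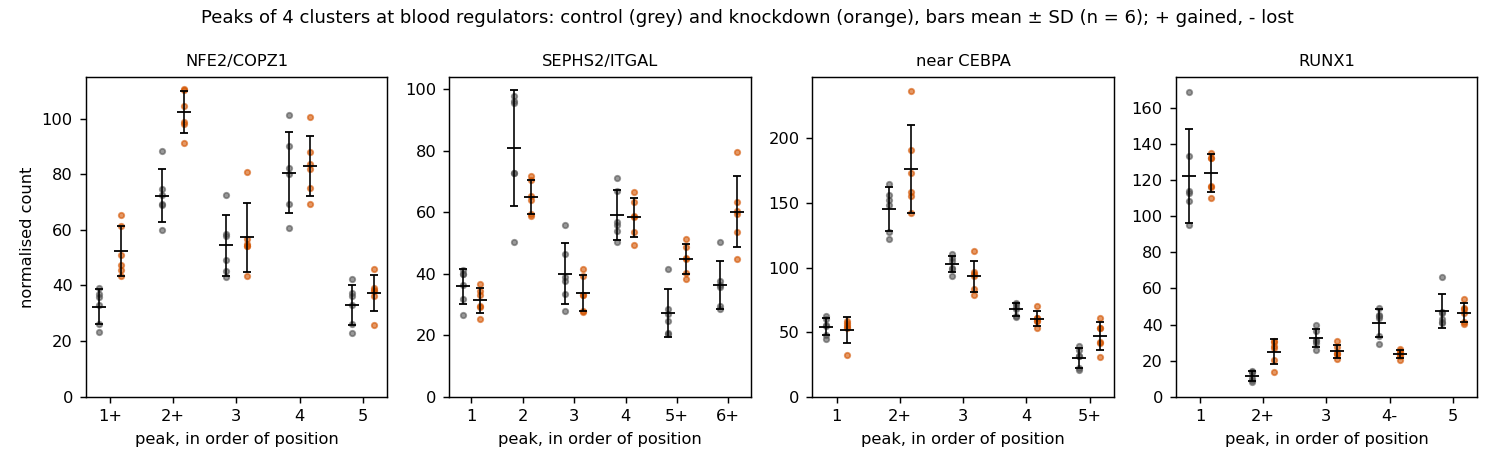
Normalised count (y axis) of each peak, in order of position (x axis), of the clusters at NFE2, ITGAL, CEBPA and RUNX1, with control libraries in grey, knockdown libraries in orange and bars for the mean ± SD (n = 6). A plus marks gained and a minus lost peaks, and at RUNX1 the second peak is gained and the fourth lost.

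The batches were compared by direction. All 97 called sums had the same sign in both batches, which calls made on both batches together favour, and 183 of all 221 sums, called or not, did so. Across the 221 clusters the log2 fold changes of batch 1 and batch 2 correlated at r = 0.85, as a description over clusters that share the libraries of each batch (0.87 over all 19321 runs). Of the 532 called peaks, 529 had the same sign in both batches, as had 99.9% of the 11185 called peaks of the whole table, and all 104 clusters with opposite calls remained when only such peaks were counted. DESeq2 within batch 1 called 140 cluster peaks (10.9%), 79 gained and 61 lost, against 12% of all peaks. All 140 had the same sign in batch 2, and 115 were called there. Within batch 2 it called 330 cluster peaks (25.6%), 173 gained and 157 lost, against 25.8% of all peaks. Of these 316 had the same sign in batch 1, and 0 were called with the opposite sign there.

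Opposite directions found in 1 batch were read in the other, which their calls had not used. Batch 1 alone gave 15 clusters with gained and lost peaks. All 15 kept both signs in batch 2, where their 15 gained peaks had a median log2 fold change of 0.92 and their 15 lost peaks -0.93. Batch 2 alone gave 53 such clusters, of which 49 kept both signs in batch 1. There the 82 gained peaks had a median of 0.90 and the 69 lost peaks -0.81. The 2 batches used the same cells, so this compares experimental rounds and not independent lines. Batch 1 calls were fragile. Leaving out a library moved their number by over 1.5 times in each case: 88, 43 and 39 without control replicate 1, 2 and 3, and 8 and 10 without knockdown replicate 1 and 2. Batch 2 called 210 without control replicate 5 or 6.

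**Figure D5:**
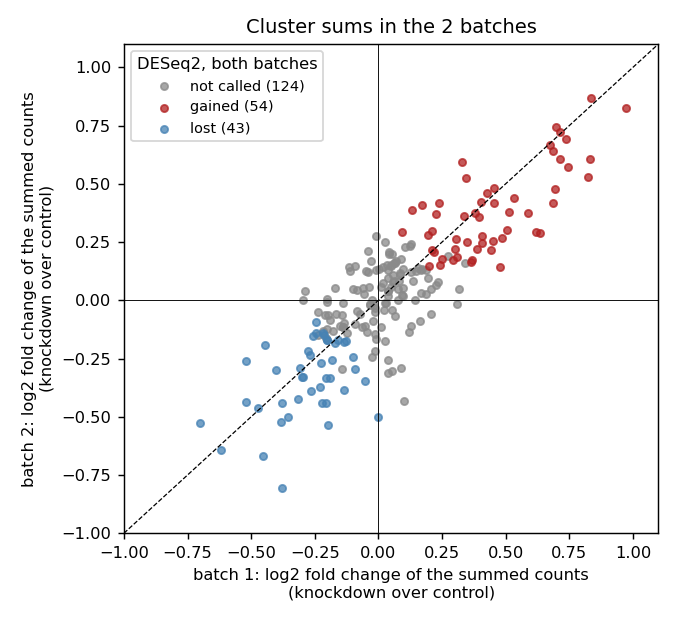
Log2 fold change of the summed counts (knockdown over control) in batch 1 (x axis) against batch 2 (y axis) for the 221 clusters, coloured by the call over both batches (red 54 gained, blue 43 lost, grey 124 not called). The dashed line marks equal values. All called clusters fall in the quadrants where the signs match.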

How the data were processed

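RUNX1 ChIP-seq was read in 12 THP-1 libraries, grouped by the labels. Per the study's methods and labels, the authors aligned reads with bowtie2, removed duplicates, called peaks with macs2 per condition and batch, kept peaks reproducible between batches, merged both conditions and counted reads with featureCounts. Versions are not given in the sources used here. The deposited values are raw counts per peak and library, with peak widths in bp as other information. Peaks were thus called on the libraries that are compared. The methods name a mouse build, but 21.7% of peaks lay within 1 kb of a GRCh38 start, against 2.85% to 3.78% when all peaks were moved, so GRCh38 was used. IgG libraries were not analysed here.

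DESeq2 1.42.0 (R 4.3.3) was fitted to all 26642 peaks and to sums over all 19321 runs, with size factors from the median of ratios and a term for batch. Adjusted p-values are Benjamini-Hochberg values over the whole table, called under 0.05 with a fold change over 1.1. Normalised counts are counts divided by size factors. Gene names, starts and promoters came from RefSeq tables through Python 3.11.15. Alternatives were edgeR 4.0.16, other scalings, filters, thresholds, gaps and run lengths, a replicate block, centring on peaks within 5 Mb, each batch alone and leaving out each library. For centring, the local median was subtracted from the DESeq2 log2 fold change, the standard error was kept and a normal test was used. The median was thus taken as known without error. The methods were tested on simulated counts with few changed rows, the same dispersion for all rows and no batch effect. That setting is simpler than these data.

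Named clusters were the 5 with most peaks, the 5 with the largest sums, the 5 largest gains and 5 largest losses among called sums with libraries that did not overlap in either batch, the 8 opposite clusters with the widest gap between called peaks of at least 20 mean normalised counts, and those at 60 blood genes. Of the opposite clusters, 2 are not reported here. Members and lists were chosen with earlier results of these data known. Exon and intron positions and sequences of distal peaks were not analysed here.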

Additional observations from a re-analysis of the deposited data

Results flagged for a closer look

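Dixon's criterion was applied to 64 groups of 6 libraries, the sums of the 31 named clusters and the share of reads in clusters, each in control and knockdown libraries. A library stood far from the others in 3 groups, where chance flags about 1 group in 20. At BMP8B, control replicate 4 summed to 1167 normalised counts and the next control library to 1042. At ZC3H3, GSDMD and MROH6, control replicate 3 summed to 202 and the next to 264. Over SEPHS2 and ITGAL, knockdown replicate 3 summed to 334 and the next to 291.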

How the results depend on the processing

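Of 141 values of the main results under alternatives, 101 stayed near the main value. Named clusters were read under edgeR, no batch term, the replicate block, centring on peaks within 5 Mb and leaving out each library. They were not read under the other scalings or the filter of at least 10 counts. Of these 496 values, 469 kept their call or its absence, 19 lost and 7 gained a call. A change of sign between uncalled values was counted as kept. The 1 reversal that involved a call was the sum over MYH9/TXN2/FOXRED2, whose log2 fold change was -0.027 when centred on peaks within 5 Mb. The cause of these shifts was not tested. Leaving out the 7 clusters flagged for near-identical sequence, an alternative chosen after seeing the data, gave 517 called peaks, 94 called sums and 100 opposite clusters. Other definitions change the members by construction. Called peaks (532) became 67 with gaps up to 5 kb, 1882 with gaps up to 25 kb, 1117 with runs of 4 or more and 73 with runs of 8 or more. Called sums (97) became 15, 355, 276 and 7, opposite clusters (104) 10, 322, 180 and 14, and clusters with calls in 1 direction (57) 11, 218, 175 and 3. The within-batch difference in the share of reads (0.131 points) became -0.0213, 0.406, 0.265 and -0.0477.

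With at least 10 counts in every library, 349 peaks were called and 60 clusters had opposite calls, and batch 1 called 91. A fold change over 2 left 160 peaks, 14 opposite clusters, 22 in 1 direction, 146 peaks in batch 2 and 0 sums by DESeq2, against 97 at the lower limit. edgeR called 341 cluster peaks in batch 1 and 103 sums, all 97 of the DESeq2 calls among them, and gave an adjusted p of 0.0469 at the 5S array. Centred on peaks within 5 Mb, 60 sums were gained and 36 lost, and 71 of the 97 calls remained. In batch 1 alone 80% of neighbouring called pairs moved the same way (12 of 15).

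Replicate numbers did not pair the libraries: deviations of same-numbered libraries correlated at -0.061 to 0.004, and number 3 lies in different batches. With the replicate block, 341 peaks, 48 sums and 57 opposite clusters were called. The block gave the 5S array sum a call (-0.27, adjusted p = 0.0181, DESeq2). Leaving out each library gave 465 to 527 peaks, 85 to 95 sums, 88 to 99 opposite clusters, 51 to 61 in 1 direction, 0.114 to 0.152 points, 8 to 88 peaks in batch 1 and 210 to 285 in batch 2. Where a knockdown library of batch 1 was left out, the lone remaining library was assumed to vary like the controls. Depth limits weak peaks, for which a missing call does not show an equal level.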

Other observations

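The following 5 clusters were picked out after their values were seen. The sum over AHDC1 and FGR, a Src family kinase of myeloid cells, had a mean of 111 ± 14.5 normalised counts in control and 175 ± 18.7 in knockdown libraries (SD, n = 6), a log2 fold change of 0.65 with 3 of 5 peaks gained (adjusted p = 1.69e-08, DESeq2). Over MAP2K2, a kinase of the MAP kinase cascade, the means were 165 ± 26.2 and 255 ± 13.1, and the log2 fold change was also 0.65 (adjusted p = 1.43e-10, DESeq2). ACTN4, an actin crosslinker, had 6 of 7 peaks gained and 1 lost, with means of 163 ± 25.4 and 266 ± 16.6 (log2 fold change 0.70, adjusted p = 1.65e-12, DESeq2). Among losses, TRIB3, a stress-induced pseudokinase, went from 419 ± 17.5 to 314 ± 15.5 (-0.42, adjusted p = 2.47e-09, DESeq2), and MAPK6, an atypical MAP kinase, from 243 ± 17.8 to 176 ± 11.0 (-0.47, adjusted p = 2.09e-07, DESeq2). In all 5, every knockdown library lay beyond every control library of its batch.

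Neighbouring clusters on chromosome 3 differed in direction. Next to the lost cluster over NRROS, the cluster near CEP19 at chr3:196684526-196701356 had a mean sum of 127 ± 8.92 in control and 198 ± 11.7 in knockdown libraries (SD, n = 6), a log2 fold change of 0.64 (adjusted p = 2.11e-10, DESeq2), with 0.75 in batch 1 and 0.57 in batch 2. Of 4 gene names that mark 2 clusters each, IL6R was the case with a lost and a gained sum. At RASA3, a Ras GTPase-activating protein, 1 sum was not called (-0.07) and the other was gained (0.33, adjusted p = 0.00395, DESeq2), and near UACA the values were 0.08, not called, and 0.47 (adjusted p = 1.79e-08, DESeq2). Over IQSEC1 neither sum was called (0.05 and -0.01).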
